A study of Mus musculus with 8 samples.

Results

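Cadherins are calcium-dependent adhesion proteins of the cell surface. Classical cadherins of type I and type II bind cadherins on the opposite cell through their outermost extracellular domain and are tied to actin by catenins. The non-clustered protocadherins, the Celsr receptors, the large Fat and Dachsous cadherins and the calsyntenins complete the group, which is known in cortex for cell sorting, axon targeting and the choice of synaptic partners. Here its members were compared between chandelier cells (ChC), which innervate pyramidal neurons at the axon initial segment, and Pv cells, which are parvalbumin-positive fast-spiking interneurons. The members were all gene names that consist of Cdh or Pcdh and a number (with Pcdh11x), Celsr1 to Celsr3, Fat1 to Fat4, Clstn1 to Clstn3 and Dchs1. This gave 46 of the 23335 gene names. At least 1 transcript molecule was counted for 41 of them, of 16531 names with any count.

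Single fluorescent neurons were collected by hand from frontal cortex of female mice. ChC came from Nkx2.1-CreER; Ai14 mice, in which tamoxifen late in gestation switched on the red reporter, and Pv cells came from Pv-ires-Cre; Ai14 mice. The sample labels repeat the tamoxifen protocol of the first line for the Pv samples too. Nkx2.1-CreER acts in progenitors of the medial ganglionic eminence and Pv-ires-Cre in any cell that expresses parvalbumin, so neither line marks its cell type by position or shape. ChC library batches 1 and 2 were from animal 1 (postnatal day 31) and batches 3 and 4 from animal 2 (day 32). Pv batches 5 and 6 were from animal 3 (day 29) and batches 7 and 8 from animal 4 (day 35). Each batch had 16 cells, of which 2 in all (1 per type) had no counts and were left out. Each cell type had its own mouse line and its own flow cell, so type, line and flow cell cannot be told apart. In levels summed over the cells of a batch, fewer cells with a transcript and less transcript per cell cannot be told apart either.

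The values are counts of unique molecular identifiers (UMI), tags that mark single molecules. With the transcript rows of each gene added up, depth was 527743, 657957, 2898413 and 1307666 in ChC and 456458, 501563, 370238 and 921212 in Pv cells, in UMI per batch. Levels below are in CPM (counts-per-million units, within a batch), scaled by edgeR's trimmed mean of M values (TMM), and are listed in the order of the batches. They were not divided by transcript length, since tags count molecules. For 2641 gene names the deposited table has several transcript rows, which can hold the same molecules, and their sum then counts a molecule more than once. Levels of such genes, and their places in an order, depend on the number of rows, and an order of levels between genes also rests on equal capture of their transcripts. Members were long genes, with a median genomic span of 155 kb against 30.6 kb for all genes (at least 100 UMI in the largest row). The rank correlation of span and UMI was 0.319 over these 31 members and 0.148 over all 8732 such genes. The part of gene span in the order of levels was not tested.

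The labels were checked on marker genes. Pvalb, the calcium buffer that names the Pv cells, was at 142, 165, 100 and 75.9 CPM in ChC and at 1488, 689, 414 and 1042 CPM in Pv cells, without overlap. The vesicular GABA transporter Slc32a1 was present in every batch, from 785 CPM in batch 7 to 2983 CPM in batch 5. Gad1 ranged from 506 to 2471 CPM, Gad2 from 33.2 to 813 CPM, Lhx6 from 46.1 to 901 CPM and Nkx2-1 from 40.8 to 148 CPM. The glutamate transporter Slc17a7 reached 215 CPM in batch 7 and was at most 75.9 CPM elsewhere. Batches 3 and 6, both labelled female, stood apart in sex-linked genes. Xist, the transcript of the inactive X chromosome, was at 0 of the 501563 UMI of batch 6, against 103, 338, 890 and 467 CPM in ChC and 298, 160 and 222 CPM in the other Pv batches. The Y-linked Kdm5d had 25 UMI in batch 6, 71 UMI in batch 3, where Xist was highest, and 0 or 1 UMI in the others. Of the other Y-linked genes, Ddx3y had between 4 UMI (batch 6) and 53 UMI (batch 3), and Uty between 3 UMI (batch 1) and 58 UMI (batch 3), in batches of unequal depth. Eif2s3y, also Y-linked, had 2 UMI in batch 3 and 0 UMI in the others. Whether samples were exchanged was not tested. Of 2414 genes that averaged at least 100 CPM over the other batches, 5.34% were at 0 in batch 6, against 0.29% to 4.03% for the other 7 batches. The median fold change of the members and the count of members with separated batches are therefore also given without batch 6 and without batch 3, while the order of levels and the shares of cells are given with both.

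With rows summed, members made up between 0.25% of all UMI (batch 5) and 0.575% (batch 1). Their order of abundance differed in part between the cell types. With rows summed, the mean level in ChC was highest for Clstn2, followed by Pcdh15, Pcdh9, Cdh12, Clstn3, Pcdh8, Pcdh19, Pcdh17, Cdh4 and Pcdh10. In Pv cells the order was Pcdh9, Clstn3, Pcdh15, Clstn2, Cdh12, Pcdh10, Pcdh7, Cdh13, Cdh10 and Cdh18. The places of Pcdh15 and Pcdh10, with 4 nested rows each, came from this sum. With the largest row of each gene, an alternative added after the data were seen, Pcdh15 took place 9 in ChC and 10 in Pv cells, and Pcdh10 was in neither of the highest 10. The highest 10 of each type shared 6 genes with either count, namely Clstn2, Pcdh9, Cdh12, Clstn3 and Pcdh15, with Pcdh10 in the sum and Cdh18 in the largest row. Pcdh8, Pcdh19, Pcdh17 and Cdh4 were among the highest 10 in ChC alone and Pcdh7, Cdh13 and Cdh10 in Pv cells alone with either count.

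Most neighbors in either order lay within the spread of each other's 4 batches. In ChC, Clstn2 at 1453 ± 417 CPM was above Pcdh9 at 614 ± 245 CPM (SD, n = 4 batches each) by more than both SDs. In Pv cells Pcdh9 at 908 ± 703 CPM was not separated from Clstn3 at 493 ± 370 CPM. The 6 most abundant members over all batches (Clstn2, Pcdh9, Pcdh15, Clstn3, Cdh12 and Pcdh8) held 69.1% of the members' summed UMI. With the largest row, Pcdh19 took the place of Pcdh15 among these 6 and the share was 69.9%.

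**Figure D1:**
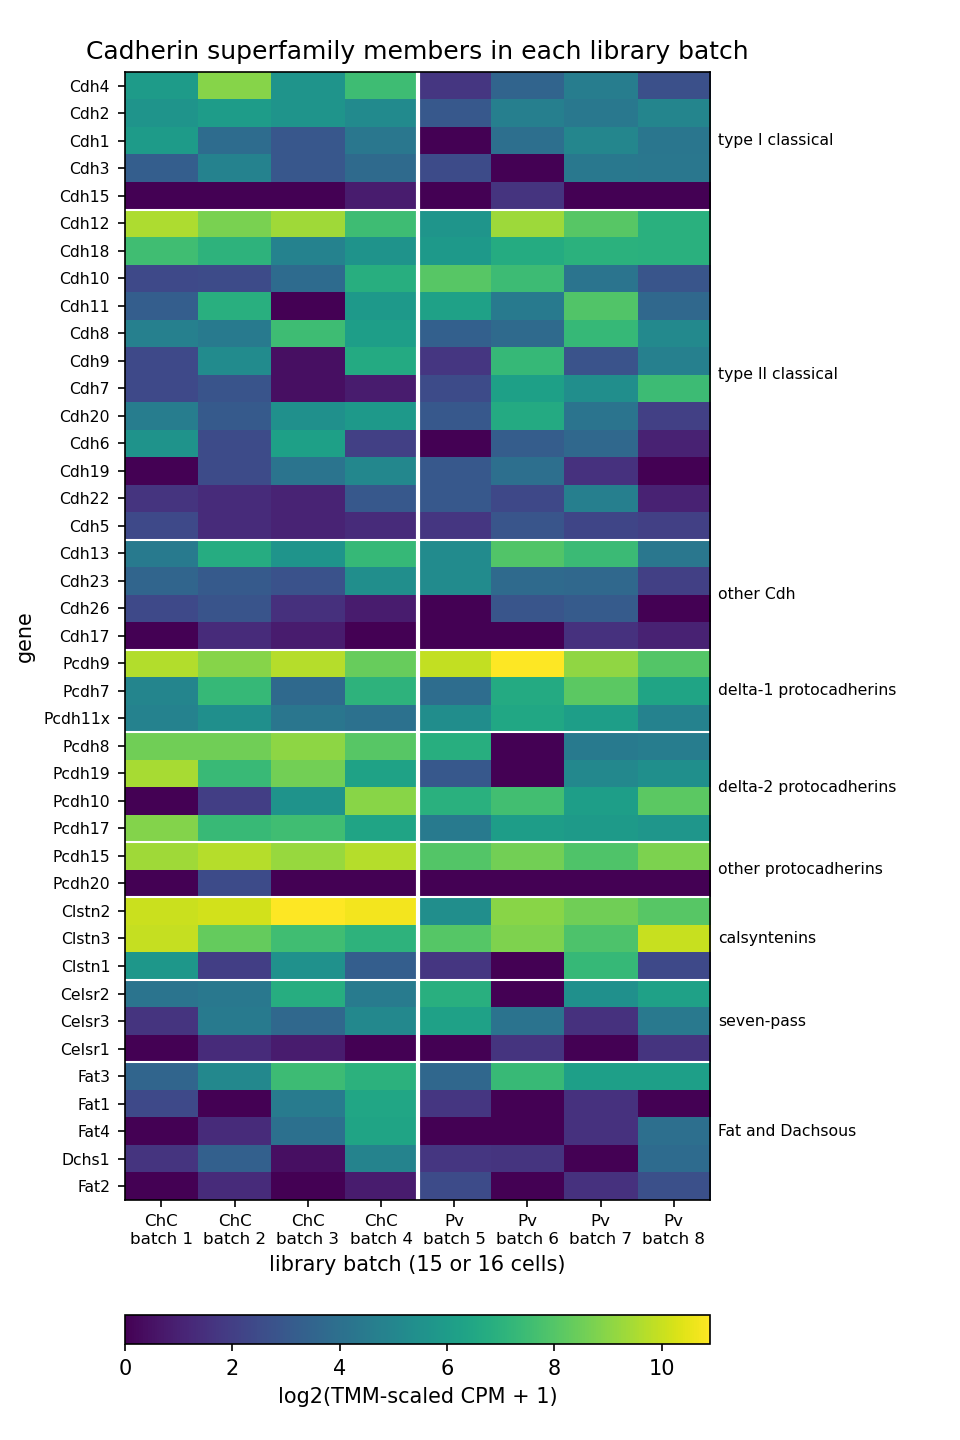
Level of the 41 members with a count (rows, grouped by subfamily and ordered by mean level) in the 4 ChC and 4 Pv library batches (columns), as log2 of TMM-scaled CPM plus 1. Clstn2, Pcdh8, Pcdh19 and Cdh4 are brighter in each ChC batch than in any Pv batch, while Pcdh9 and Clstn3 are bright in both.

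ChC and Pv cells were compared over animals, 2 against 2, with edgeR's quasi-likelihood test on UMI summed per animal. Of the 41 members, 32 passed the filter on low counts and were tested among 9829 genes. No member was called at a Benjamini-Hochberg adjusted p under 0.05, and no other gene was either (0% of genes). Pvalb, which names the Pv cells, was among the genes not called (log2 fold change -2.99, edgeR adjusted p = 0.598), although its batches did not overlap. The lack of a call therefore does not show that levels were equal. At an unadjusted p under 0.05, 5 of the 32 members were higher in ChC (Clstn2, Pcdh8, Cdh4, Pcdh19 and Pcdh17), against 3.61% of all genes, and 1 was higher in Pv cells (Cdh7), against 2.66% of all genes. DESeq2 called 2 members, Cdh4 and Cdh7, and 1.62% of its 10260 genes. Without the filter, edgeR called 2 members, Clstn2 and Pcdh19, and 0.484% of 16531 genes. A shift of the members as a group was not tested. Their median log2 fold change of ChC over Pv was -0.03, beside 0.04 for all genes tested, with 16 members on either side of 0. It was 0.60 without batch 6 (0.11 for all genes), 0.31 without batch 3 (0.05), 0.43 without animal 3 (0.20) and 0.36 without batch 7 (0.04). Without animal 4 it was 0.23, below the 0.58 of all genes. It was -0.07 without batch 1 (0.0036 for all genes), -0.19 without batch 8 (0.05) and -0.02 without animal 2 (-0.30). Its sign thus rested on single batches. After thinning each cell to 10000 UMI it was -0.29 (-0.02 for all genes). The sign of the fold change turned in at least 1 fit without a batch or an animal for 20 of the 32 tested members (62.5%), beside 60.4% of all tested genes. The median size of the change, regardless of sign, was 0.93 for the members and 0.88 for all genes.

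The batches give a second view, without a test, because the 2 batches of an animal share their source. For 7 of the 32 tested members all 4 ChC batches lay above all 4 Pv batches, beside 2.9% of all tested genes and 3.15% of the 8560 tested genes with at least 100 UMI. The 7 members were Cdh4, Pcdh19, Pcdh8, Clstn2, Pcdh17, Cdh2 and Pcdh15. No member had all Pv batches above all ChC batches, beside 1.4% of all tested genes. Without batch 6 the same 7 members had all ChC batches above, beside 4.06% of all tested genes, and no member had all Pv batches above, beside 2.77% of all tested genes. The counts of members were also 7 and 0 without batch 3, beside 3.98% and 2.83% of all tested genes. Leaving out a batch cannot undo a separation, so these counts show only that no member was added. In the Pv direction, Cdh7 and Pcdh11x were added without batch 2 (2.34% of all tested genes), Pcdh10 without batch 4 (2.39%) and Cdh7 without batch 5 (2.61%). Pcdh17 dropped out when CPM were not TMM-scaled, and Pcdh17 and Cdh2 dropped out when each cell was first thinned to 10000 UMI. The share of all tested genes with these settings is not given, so these losses cannot be set beside other genes.

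**Figure D2:**
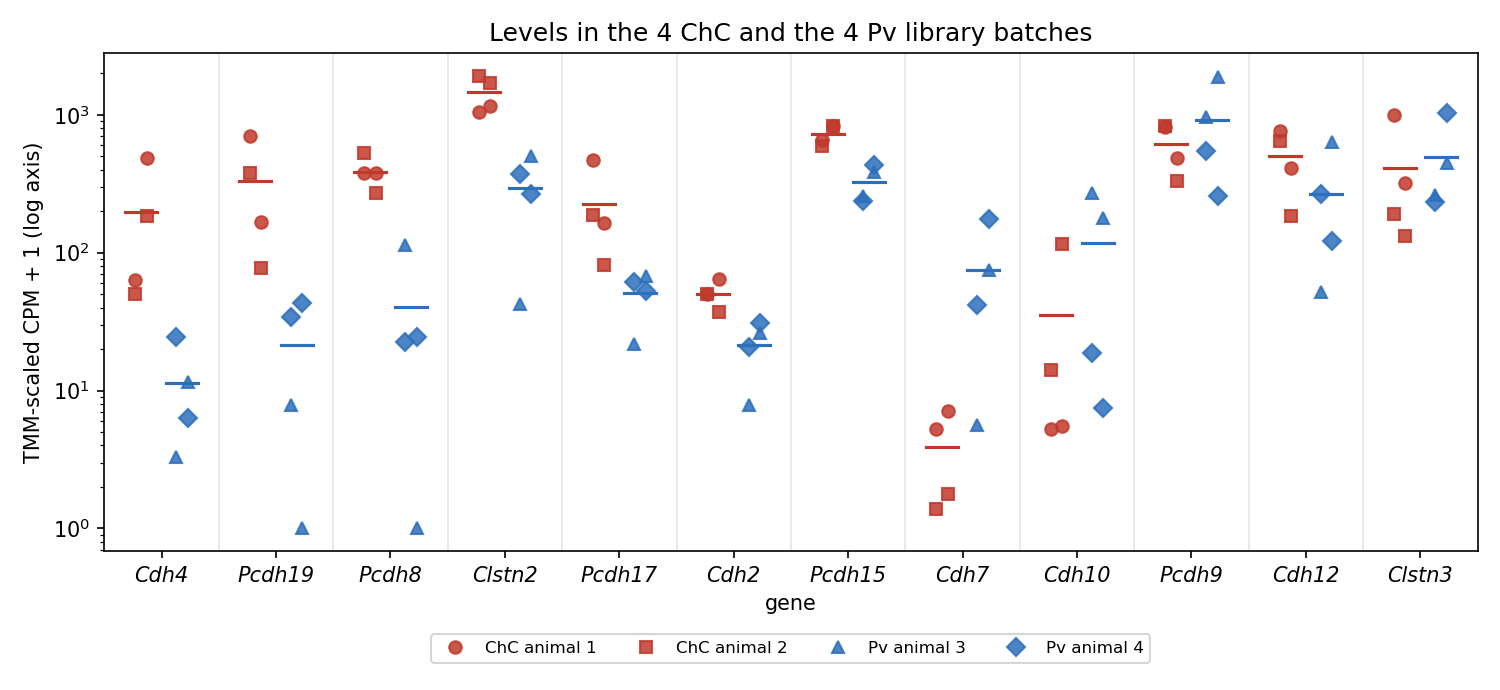
Levels of 12 members in each library batch, as TMM-scaled CPM plus 1 on a log axis, with ChC in red, Pv in blue, a symbol shape per animal and short lines at the means of 4 batches. The groups are apart for Cdh4, Pcdh19, Pcdh8, Clstn2, Pcdh17, Cdh2 and Pcdh15, and overlap for the remaining 5.

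Among the type I classical cadherins, Cdh4 (R-cadherin) stood out. It spans chr2:179177183-179634080 in mm9, on the plus strand. Its level was 62.2, 486, 49 and 182 CPM in the ChC batches and 2.31, 10.5, 23.4 and 5.37 CPM in the Pv batches. The lowest ChC batch lay above the highest Pv batch, but the ChC batches themselves differed up to the level of batch 2, and both low ChC values came from different animals. The mean was 195 ± 203 CPM in ChC and 10.4 ± 9.32 CPM in Pv cells (SD, n = 4 batches each), a ratio of 18.7. The edgeR log2 fold change was 4.39 (SE 1.19, adjusted p = 0.598), and the DESeq2 adjusted p was 0.0184. Without single batches the log2 fold change lay between 3.01, without batch 2, and 5.05. Cdh2 (N-cadherin), the widespread neuronal cadherin that binds Cdh4 as well as itself, was at 49.3, 63.7, 49 and 36 CPM in ChC and 6.92, 25.1, 19.5 and 30.1 CPM in Pv cells. Its groups did not overlap, yet the closest ChC and Pv batches were near each other, and its log2 fold change was 1.19 (SE 1.25, edgeR adjusted p = 0.988). Cdh1 (E-cadherin) and Cdh3 (P-cadherin) had 120 and 86 UMI in all cells, with overlapping batches, and Cdh15 (M-cadherin of muscle) had 2 UMI. All 4 tested members of type I had a fitted log2 fold change above 0, with a median of 0.83, and none passed the edgeR test. Those of Cdh1 and Cdh3 were as low as -0.63 and -0.49 when a batch or an animal was left out.

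Of the 13 type II cadherins, 12 had a count and 10 were tested. Cdh12 was the most abundant, at 766, 413, 647 and 185 CPM in ChC and 50.8, 628, 266 and 120 CPM in Pv cells. The values overlapped and the means of 503 ± 258 and 266 ± 257 CPM (SD, n = 4 batches each) were within their spread, with a log2 fold change of 0.94 (SE 0.64, edgeR adjusted p = 0.933). It was 0.32 without batch 5 and 2.15 without batch 6. Cdh18 ranged from 27.2 to 191 CPM in ChC and from 57.7 to 125 CPM in Pv cells, and its log2 fold change of -0.14 (SE 1.08, edgeR adjusted p = 0.999) was between -1.71 and 0.60 without an animal. Of the 10 tested type II members, 4 had a fitted value above 0 and 6 below, with a median of -0.14.

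Cdh7, Cdh10 and Cdh6 are described next and were chosen after their values were seen. Cdh7 was at 4.29, 6.07, 0.377 and 0.782 CPM in ChC and 4.61, 73.3, 41 and 175 CPM in Pv cells. It was low in all ChC batches and in Pv batch 5, which kept the groups from separating, and high in the remaining Pv batches. Only 8 of its 229 UMI were in ChC. The mean in Pv cells was 25.5 times that in ChC, and the log2 fold change was -4.98 (SE 1.71), with an adjusted p of 0.704 in edgeR and 0.0455 in DESeq2. Fits without a batch or an animal gave values from -7.32 to -3.93, and without batch 6 it did not pass the filter. Cdh10 was at 4.29, 4.55, 13.2 and 114 CPM in ChC and 268, 178, 17.6 and 6.44 CPM in Pv cells. Both batches of animal 3 were high and both of animal 4 were low, within the range of ChC. Its log2 fold change was -2.29 (SE 1.64, edgeR adjusted p = 0.935) and 1.20 without animal 3. Cdh6 was at 47.2, 4.55, 73.6 and 3.13 CPM in ChC, where each animal had a high and a low batch, and at 0, 8.38, 11.7 and 1.07 CPM in Pv cells. Its log2 fold change was 2.87 (SE 1.46, edgeR adjusted p = 0.858). Without single batches it lay between 2.00, without batch 8, and 3.65, without batch 7. It had no fitted value without batch 1 or batch 3. The other tested type II members, Cdh8, Cdh9, Cdh11, Cdh19 and Cdh20, overlapped between the types and had fitted values between -0.92 and 1.03. Cdh5, the cadherin of endothelial junctions, had 17 UMI in all cells and Cdh22 had 33, too few to be tested. The endothelial marker list was also low, with 4 of 5 genes counted, Cldn5 at 0 and Tek the most abundant, and a summed level of 38.6, 48.6, 14 and 25.8 CPM in ChC and 11.5, 37.7, 58.6 and 26.8 CPM in Pv batches.

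The 2 types of classical cadherin differ at the start of the mature protein, where the outermost domain swaps a strand with its partner and anchors it by tryptophan. The coding sequences of the mouse annotation (GENCODE M1, on NCBIM37, the same assembly as mm9) were searched for the cleavage site that frees this end, read as an arginine, any residue, a lysine or arginine and an arginine, with a tryptophan within the next 4 residues. It was found in all 5 type I and all 13 type II members. Of the first 6 codons after the site, codon 2 alone was a tryptophan codon in each type I member, and codons 2 and 4 were in each type II member. The coding sequences below are shown for members picked by hand (Cdh4, Cdh12, Cdh7, Cdh10 and Cdh6), with Cdh1 as a reference. Cdh2, whose batches were also separated, is not among them. Each is the first 10 codons after the site, 30 bases of the coding strand within 1 coding exon, with the tryptophan codons (TGG) of the first 6 in capitals. They lie at chr2:179532265-179532294 (Cdh4, plus strand), chr8:109177482-109177511 (Cdh1, plus), chr15:21167598-21167627 (Cdh12, plus), chr1:111890898-111890927 (Cdh7, plus), chr15:18829506-18829535 (Cdh10, plus) and chr15:13021444-13021473 (Cdh6, minus).
Cdh4: gacTGGgtcatcccacccatcaacgttccc
Cdh1: gacTGGgtcatccctcccatcagctgcccc
Cdh12: ggcTGGgtaTGGaatcagttttttgtgctg
Cdh7: agcTGGgttTGGaatcagttcttcgtgctg
Cdh10: ggcTGGatgTGGaatcagtttttcttgctg
Cdh6: agtTGGatgTGGaatcagttcttcctcctg
Since every member has the start of its type, these sequences say nothing about levels. Among the classical cadherins tested, Cdh4 had the highest ratio of ChC to Pv level and has the type I start. Cdh6 had the next highest (6.07) and has the type II start, as has Cdh7, with the highest ratio of Pv to ChC level.

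Of the Cdh genes outside both types, Cdh13 (T-cadherin, which is held in the membrane by a lipid anchor) was the most abundant. It was at 21.4, 106, 49.4 and 160 CPM in ChC and 36.9, 249, 170 and 19.3 CPM in Pv cells, with full overlap, and its log2 fold change was -0.58 (SE 0.97, edgeR adjusted p = 0.991). Its sign turned without batch 3 (0.08), without batch 6 (0.40) and without animal 3 (0.06). Cdh23, a part of the tip links of hair cells, had 108 UMI. Cdh17 and Cdh26 had 5 and 19 UMI and were not tested, and Cdh16 had none. Cdh16, Cdh24, Pcdh1, Pcdh12 and Pcdh18 were the 5 members without a count. A count of 0 over all cells allows up to 0.393 CPM, which covers counting error only.

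The delta-2 protocadherins, homophilic adhesion proteins with a cytoplasmic motif that binds the actin-regulating WAVE complex in several of them, gave 3 of the 7 members whose batches did not overlap. Pcdh8 was at 375, 376, 525 and 268 CPM in ChC, the narrowest spread of the 3, and at 113, 0, 21.5 and 23.6 CPM in Pv cells. Its mean was 386 ± 105 CPM against 39.5 ± 50.2 CPM (SD, n = 4 batches each), a ratio of 9.77. The edgeR log2 fold change was 3.34 (SE 0.83, adjusted p = 0.598), and it lay between 2.46 and 4.97 when single batches were left out. The 0 in batch 6 allows up to 5.98 CPM before TMM scaling. Pcdh8 spans chr14:80166579-80171119 on the minus strand.

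Pcdh19, an X-linked gene, was at 706, 167, 380 and 75.9 CPM in ChC and at 6.92, 0, 33.2 and 41.9 CPM in Pv cells. The ChC batches of each animal differed by more than the gap between the lowest ChC and the highest Pv batch. The means were 332 ± 280 and 20.5 ± 20.2 CPM (SD, n = 4 batches each), a ratio of 16.2. The log2 fold change was 3.91 (SE 1.19), with an edgeR adjusted p of 0.632, 0.0495 without the filter and 0.0204 without animal 4. It was 0.0658 in DESeq2 and from 0.168 to 0.911 in edgeR fits without another animal or a batch. The log2 fold change lay between 3.08, without animal 3, and 6.56, without animal 4. Pcdh19 spans chrX:130117400-130223532 on the minus strand. Pcdh17 was at 470, 164, 188 and 80.6 CPM in ChC and at 20.8, 67, 60.5 and 51.5 CPM in Pv cells. Its groups were narrowly apart, between batch 4 and batch 6. Its log2 fold change was 2.09 (SE 0.89, edgeR adjusted p = 0.783). Pcdh17 spans chr14:84843370-84936867 on the plus strand. The 4 tested delta-2 members had a median log2 fold change of 2.72, and none passed the edgeR test.

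Pcdh10, the remaining delta-2 member with counts, was chosen for description after its values were seen. Summed over rows it was at 0, 3.04, 48.3 and 501 CPM in ChC and 120, 193, 68.4 and 285 CPM in Pv cells. The ChC batches spanned the whole range, so that batch 4 alone was above all Pv batches and the other ChC batches below. Its log2 fold change was -1.01 (SE 1.48, edgeR adjusted p = 0.991), -1.77 in the largest row and 0.49 without batch 3. The deposited table has 4 rows for Pcdh10, which share their start at chr3:45182320 on the plus strand and end at 45186957, 45203520, 45227633 and 45238501. Their totals grew with the end, 163, 221, 403 and 427 UMI, and in no batch did a longer row hold fewer UMI than a shorter one. Molecules of the shorter span were thus counted again in each longer row, and the sum of rows held 1214 UMI where the longest row held 427.

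The differences between successive rows show where along the gene the molecules lay. The shortest span held 153 of the 167 UMI of the longest row in batch 4, and 10 of 36 UMI in batch 6. It held 0 UMI in the other 6 batches. In batch 8, 95 of 134 UMI were added between positions 45203521 and 45227633, and in batch 5 this was the case for 25 of 27 UMI. In batch 3, 38 of 45 UMI were added between 45186958 and 45203520. Batches of the same cell type and the same animal therefore differed in the part of the gene that was counted. Further members with several rows and counts were Pcdh15, Cdh8, Cdh3 and Pcdh7. The longest row of Pcdh15 held 1181 UMI of a sum of 4292 over 4 rows, Cdh8 held 358 of 715 UMI, Cdh3 held 43 of 86 UMI, and of the 2 rows of Pcdh7 only 1 had counts. With the largest row in place of the sum, the same 7 members kept all ChC batches above all Pv batches. The share of all genes with the largest row is not given.

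**Figure D3:**
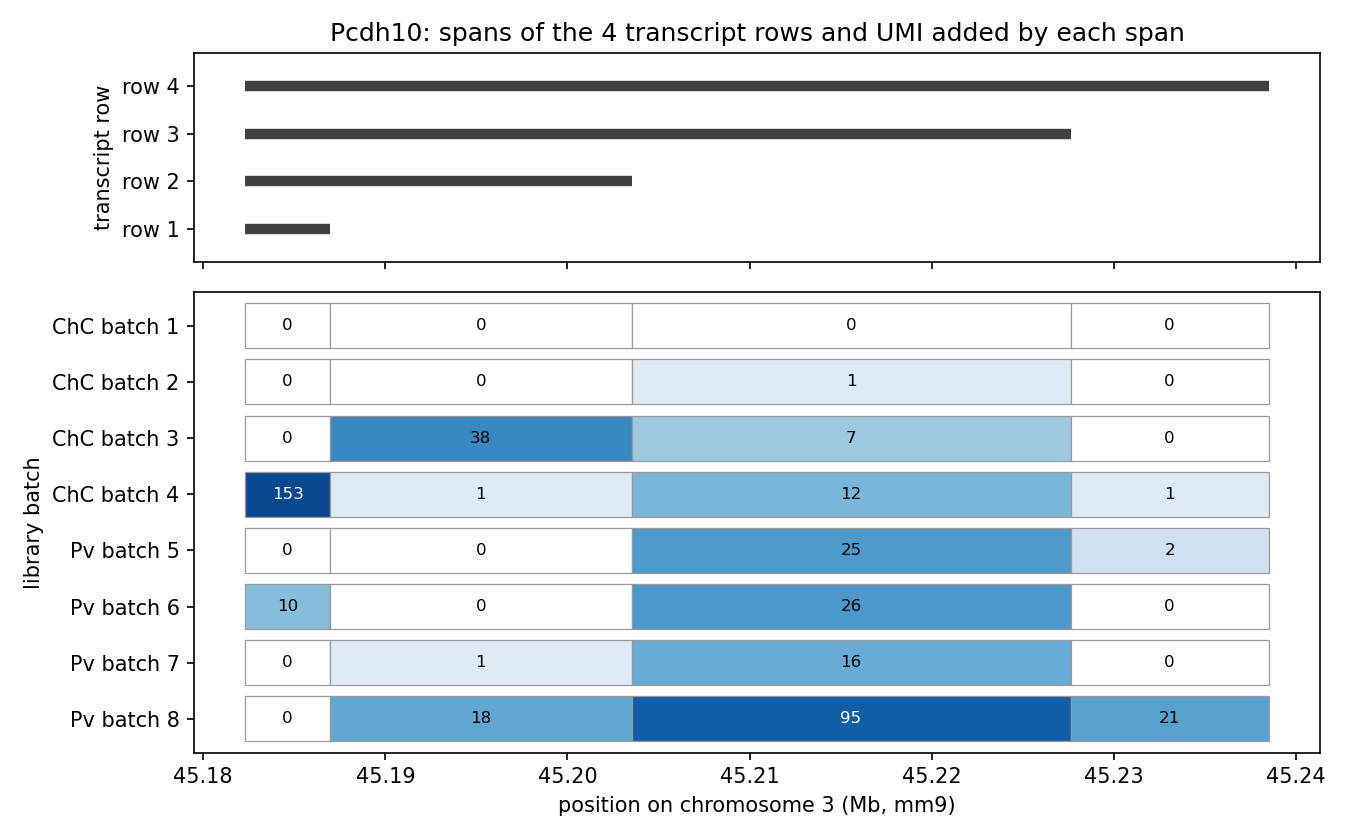
The 4 nested transcript rows of Pcdh10 along chromosome 3 (top, position in Mb of mm9) and the UMI that each longer row adds, in each library batch (bottom, darker for more UMI). ChC batch 4 has 153 UMI in the shortest span, and Pv batch 8 has 95 UMI in the span added by row 3.

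None of the delta-1 protocadherins had a fitted value above 0. Pcdh9 was the most abundant member in Pv cells, at 808, 486, 830 and 332 CPM in ChC and 964, 1868, 545 and 257 CPM in Pv cells. The batches overlapped, and the log2 fold change of -0.56 (SE 0.69, edgeR adjusted p = 0.991) became 0.80 without animal 3. Pcdh9 spans chr14:93412920-94287951 on the minus strand. Pcdh7 ranged from 12.4 to 159 CPM in ChC and from 13.8 to 285 CPM in Pv cells. The X-linked Pcdh11x ranged from 15.6 to 42.5 CPM in ChC and from 27.9 to 90 CPM in Pv cells. Without batch 2 its groups all but touched, at 27.88 CPM in ChC batch 1 and 27.92 CPM in Pv batch 8. The 3 fitted values were between -1.06 and -0.50, and that of Pcdh7, like that of Pcdh9, was above 0 (up to 0.32) in a fit without a batch or an animal.

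Pcdh15, a long protocadherin best known from the tip links of hair cells, had nested rows that were summed here. It was at 652, 821, 593 and 828 CPM in ChC and 256, 383, 236 and 430 CPM in Pv cells. The groups were apart, and each was narrow beside its mean. The means were 724 ± 119 and 326 ± 94.7 CPM (SD, n = 4 batches each), a ratio of 2.22. The log2 fold change was 0.99 (SE 0.55, edgeR adjusted p = 0.883), and 1.07 in the largest row. Leaving out single batches or animals kept it between 0.85 and 1.21. Pcdh15 spans chr10:73284615-74112477 on the plus strand. Pcdh20 had 3 UMI, all in batch 2.

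Calsyntenins carry a pair of cadherin repeats outside and bind kinesin light chain inside the cell. Clstn2 was the most abundant of all members in ChC, at 1053, 1153, 1920 and 1685 CPM, against 41.5, 500, 369 and 266 CPM in Pv cells. All ChC batches were high, and the lowest of them lay well above the highest Pv batch, batch 6. The mean of 1453 ± 417 CPM in ChC was 4.94 times the 294 ± 194 CPM in Pv cells (SD, n = 4 batches each). The log2 fold change was 2.25 (SE 0.53), with an edgeR adjusted p of 0.598, 0.032 without the filter and 0.22 in DESeq2. It stayed between 1.78 and 3.00 when single batches were left out. Clstn2 spans chr9:97344814-97933586 on the minus strand. Clstn3 was at 999, 319, 190 and 131 CPM in ChC and 263, 446, 232 and 1030 CPM in Pv cells. Batches 1 and 8, of different cell types, were the 2 high ones, and the log2 fold change of -0.56 (SE 0.76, edgeR adjusted p = 0.991) turned to 0.11 without batch 2 and 0.26 without batch 8. Clstn1 was highest in batch 7 (158 CPM) and at most 53.6 CPM in the others.

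The Celsr receptors of planar cell polarity were low. Celsr2 was at 17.2, 19.7, 111 and 21.9 CPM in ChC and 118, 0, 43 and 74.1 CPM in Pv cells. Batch 3 stood apart among the ChC batches, and batch 6 was at 0. The log2 fold change was -0.34 (SE 1.20, edgeR adjusted p = 0.999), and it was above 0 without batch 4 (0.08), without batch 5 (0.54) and without animal 1 (0.34). Celsr3 had 148 UMI and Celsr1 had 6.

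Fat3 was the most abundant of the Fat and Dachsous genes, large cadherins of tissue polarity, at 10.7, 33.4, 175 and 129 CPM in ChC and 11.5, 163, 70.3 and 70.9 CPM in Pv cells. The groups overlapped fully, with a log2 fold change of 0.08 (SE 1.15, edgeR adjusted p = 0.999). Fat1, Fat4 and Dchs1 were highest in batch 4 and were chosen for description after their values were seen. Fat1 was at 4.29, 0, 22.3 and 86.8 CPM in ChC and at 2.31, 0, 1.95 and 0 CPM in Pv cells, and with 174 UMI it did not pass the filter. Fat4 was at 0, 1.52, 15.5 and 82.9 CPM in ChC and 0, 0, 1.95 and 15 CPM in Pv cells. Its log2 fold change of 1.73 (SE 2.03, edgeR adjusted p = 0.991) was -2.44 without animal 2. Dchs1, the ligand of Fat4, was at 28.2 CPM in batch 4 and at most 12.9 CPM in the others.

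Some lists of markers of other cells, but not all, had their highest sum in batch 4. The microglial list (4 of 5 genes counted, C1qa at 0, P2ry12 the most abundant) summed to 86.8 CPM in batch 4, to 0, 1.52 and 4.53 CPM in ChC batches 1 to 3 and to 0, 6.28, 3.91 and 1.07 CPM in Pv batches. The astrocyte list (4 of 5, Gfap at 0, Slc1a3 the most abundant) summed to 21.4, 114, 100 and 272 CPM in ChC and 11.5, 6.28, 143 and 94.5 CPM in Pv batches. The list of other interneurons (5 of 7, Vip and Lamp5 at 0, Cck the most abundant) summed to 55.8, 121, 292 and 1094 CPM in ChC and 92.3, 467, 201 and 630 CPM in Pv batches. Within this list Reln was highest in batch 4 (426 CPM). Cck was highest in batch 6 (322 CPM, against 303 CPM in batch 4) and Npy in batch 8 (477 CPM, against 364 CPM in batch 4). The oligodendrocyte list (3 of 5, Mag and Mobp at 0, Mbp the most abundant) summed to 6.43, 9.11, 149 and 202 CPM in ChC and 6.92, 2.09, 168 and 102 CPM in Pv batches. Batch 4 was thus the highest batch for these 4 lists. The pyramidal list (4 of 6, Neurod6 and Tbr1 at 0, Camk2a the most abundant) summed to 45, 448, 65.3 and 847 CPM in ChC and 489, 961, 1105 and 156 CPM in Pv batches. The precursor list (1 of 2, Cspg4 at 0, Pdgfra counted) was at most 30.1 CPM, in batch 8. The mural list (2 of 3, Acta2 at 0, Rgs5 the most abundant) was at 62.5 and 103 CPM in batches 7 and 8 and at 0 in the others. All 10 genes of the GABAergic list were counted, with Erbb4 the most abundant, and their sum was between 4699 CPM (batch 7) and 11641 CPM (batch 3). Other members had their highest ChC level in batch 4 too, among them Pcdh10 and Cdh10. Clstn1, Pcdh7 and Cdh11 were highest in batch 7, where the pyramidal sum was highest and the GABAergic sum lowest. The part of other cells in the levels of these genes and of Fat1, Fat4 and Dchs1 was not tested.

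Single cells were compared at equal depth, by drawing 10000 UMI from each cell. This left out 14 ChC and 4 Pv cells with fewer UMI, so 49 ChC and 59 Pv cells remained. Clstn2 was found in 49 of 49 ChC and 49 of 59 Pv cells. Pcdh8 was found in 91.8% of ChC and 32.2% of Pv cells, Pcdh19 in 83.7% and 18.6%, and Cdh4 in 57.1% and 6.78%. Without thinning the shares were 96.8% and 54% for Pcdh8, 93.7% and 42.9% for Pcdh19, and 81% and 23.8% for Cdh4. Cdh7 went the other way, with 0 of 49 thinned ChC and 30 of 59 thinned Pv cells, and 11.1% and 65.1% without thinning. These shares may do no more than restate the levels, and they do not separate fewer cells from less transcript per cell. They followed the batches. In the thinned Pv cells, Pcdh8 was found in 11 of 15 cells of batch 5 and in 0 of 13 cells of batch 6, both of animal 3. Cdh7 was found in 0 of 15 cells of batch 5 and in 16 of 16 cells of batch 8. Cdh10, unthinned, was found in 16 of 16 cells of batch 5 and in 6 of 16 cells of batch 8.

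The number of members per single cell was not clearly apart between the types. The median thinned cell had a UMI of 12, 14, 13 and 15.5 of the 41 members in the ChC batches and of 10, 13, 15 and 12 in the Pv batches. The batch medians averaged 13.6 ± 1.49 in ChC and 12.5 ± 2.08 in Pv cells (SD, n = 4 batches each), and their difference of 1.13 was smaller than the spread. It was 1.88 at 5000 UMI, 0.75 at 20000 UMI and 2.38 with the largest row. Without thinning the medians were 15.5, 18.5, 24 and 28 in ChC and 13.5, 17, 20.5 and 21.5 in Pv cells.

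Within a batch, the UMI of a member were spread over cells about as their depth would give. For the 72 pairs of a member and a batch with at least 100 UMI in the largest row, the chi-square of the counts over cells, given the total UMI of each cell, had a median of 1.18 per degree of freedom. It was under 2 in 70 of the 72 pairs, and the batch medians for all such genes were between 0.991 and 1.25. The highest value was 2.72, for Clstn2 in batch 3. The batches of an animal were compared on another scale. Of the members with at least 100 UMI in an animal, 3 of 11 (animal 1), 9 of 24 (animal 2), 3 of 8 (animal 3) and 6 of 13 (animal 4) differed by over 4-fold between its 2 batches, on CPM plus 1. For all genes the share was 40.3%, 30.5%, 40.6% and 24.9%, so such differences were not particular to the members. In the members' case Pcdh10 is an example, with 48.3 and 501 CPM in the batches of animal 2.

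The profile of the 32 tested members was also compared between batches by rank correlation across genes, as a description, since genes are not replicates. Spearman's rho was 0.759 and 0.579 for the batch pairs of the ChC animals and 0.545 and 0.65 for those of the Pv animals, in the order of the animals. Between animals of the same type the median rho was 0.584 (4 pairs) in ChC and 0.545 (4 pairs) in Pv cells. Between the types it was 0.477 (16 pairs), with a range from 0.241 to 0.614. The ranges overlapped. For all tested genes the medians were 0.503 and 0.469 within animals, 0.476 and 0.449 within types and 0.442 between types.

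Of 29 named genes that act with cadherins (catenins, nectins, proteases, WAVE subunits and others), 28 had a count and 24 were tested. None passed the edgeR test, which called 0% of all genes, and 2 had an unadjusted p under 0.05, 1 higher in ChC (3.61% of all genes) and 1 higher in Pv cells (2.66% of all genes). DESeq2 called 1 of them, Fzd3 (adjusted p = 0.0455), and 1.62% of all its genes. Their median log2 fold change was 0.13, with 14 above and 10 below 0. Klc1, a kinesin light chain bound by calsyntenins, Ctnna3 and Ctnnd2 had the highest levels with rows summed. Klc1 (2 rows) and Ctnna3 (3 rows) ranked lower in the largest row, where Ctnnd2, with 1 row, was the highest. Klc1 was at 523, 1314, 481 and 741 CPM in ChC and 261, 1231, 387 and 992 CPM in Pv cells. Ctnnd2 (delta-catenin) was at 1553, 609, 410 and 487 CPM in ChC and 847, 469, 701 and 544 CPM in Pv cells. Both overlapped between the types.

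Ctnna3, an alpha-catenin, was at 1610, 1119, 718 and 375 CPM in ChC and 171, 260, 697 and 476 CPM in Pv cells, with a log2 fold change of 1.27 (SE 0.68, edgeR adjusted p = 0.878). The 2 genes with an unadjusted p under 0.05 were named after their values were seen. Apba2, an adaptor that binds calsyntenins, was at 34.3, 89.5, 30.9 and 139 CPM in ChC and 528, 385, 162 and 282 CPM in Pv cells, without overlap. It was the 1 tested partner of 24 with all Pv batches above, beside 1.4% of all tested genes, and none had all ChC batches above, beside 2.9%. Its log2 fold change was -2.46 (SE 0.78, edgeR adjusted p = 0.647), and it lay between -2.83 and -1.74 when single batches were left out. Fzd3, a Frizzled receptor of planar cell polarity, was at 225, 1.52, 29.4 and 61 CPM in ChC and 6.92, 0, 1.95 and 0 CPM in Pv cells, so that ChC batch 2 overlapped the Pv batches (log2 fold change 5.04, SE 1.65, edgeR adjusted p = 0.679). The log2 fold change of Fzd3 lay between 4.21 and 6.92 when single batches were left out.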

How the data were processed

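The authors aligned poly(A)-primed reads to mm9 (Bowtie 0.12.7 in the submitters' processing notes), counted each varietal tag of a gene once per cell, and deposited these counts without normalization for 27207 transcript rows. All 128 cell columns were mapped to samples by their titles, and 2 without counts were left out. Rows were summed per gene name, which counts molecules of nested rows again (the sum was 1.17 times the total of the largest rows). The largest row was an alternative, and its use for the order of levels was added after the data were seen. Counts were summed per animal and tested with edgeR 4.0.16 (glmQLFit, TMM, filterByExpr) in R 4.3.3, adjusted over all 9829 genes tested. SEs are the fold change divided by the root of F. Alternatives used DESeq2 1.42.0 and limma 3.58.1, among others. Thinning drew UMI without replacement with a fixed seed. The edgeR step was run on simulated counts with known changes, as a check of the code. Their spread was set in advance and not taken from these data, so the run does not show what the test can call here. Tables and plots were made in Python 3.11.15 with pandas 2.3.3, numpy 2.4.6, scipy 1.17.1 and matplotlib 3.10.9.

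The genes given in full were members called over animals, members with at least 100 UMI and separated batches (up to 8 per direction), the 6 most abundant members and the most abundant of each subfamily. Partners were those called and the 3 most abundant. The members and lists were chosen with earlier results of these data known. Depth per batch ranged from 370238 to 2898413 UMI, and a count of 0 allows 3 counts of a batch total, between 1.04 and 8.10 CPM. Such floors cover counting error only. The DNA sequences were read from the GENCODE M1 coding transcripts and compared with the genome. Reads were not used here.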

Additional observations from a re-analysis of the deposited data

Results flagged for a closer look

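Of 26 groups of 4 batches (13 members given in full, 2 cell types), 1 had a batch far from the other 3 by Dixon's criterion, which chance meets in about 1 of 20 groups. Celsr2 was at 111 CPM in ChC batch 3, the batch with the most UMI, and between 17.2 and 21.9 CPM in the other ChC batches. The gap from it to the next value was 0.949 of the range, above the limit of this criterion for 4 values. Its 294 UMI in batch 3 were found in 15 of 16 cells. The cause was not tested.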

How the results depend on the processing

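The count of genes called over animals was 0 in edgeR, with the largest row and without shallow cells. It was 166 in DESeq2, 80 without the filter, 5 with batches as samples in edgeR, 6 with batches in limma-voom and the animal as a random block, and 1 after thinning. It ranged from 0 to 100 when animals or batches were left out. The count of members called was 0, and 2 in both DESeq2 and the fit without filter, and it ranged from 0 to 1 in the leave-one-out fits, where a lone animal was assumed to vary like the others. The count of members with separated batches (7) was 6 without TMM, 7 with the largest row and 5 after thinning. The share of all tested genes is not given for these settings, so these counts have no background. Without single batches the count ranged from 7 to 9, where all members added were higher in Pv cells. The median log2 fold change of the members (-0.03) was -0.29 after thinning and ranged from -0.19 to 0.60 over the leave-one-out fits. The difference in members per cell (1.13) was 3.38 without thinning, 1.88 at 5000 UMI, 0.75 at 20000 UMI and 2.38 with the largest row, and ranged from 0.292 to 1.96 without single batches.

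In leave-one-out fits the log2 fold change turned sign for 20 of the 32 tested members and 60.4% of all tested genes. Among the members given in full or with a main fold change of their own in a sentence, these were Cdh10 (-4.71 to 1.20), Cdh13 (-1.19 to 0.40), Cdh18 (-1.71 to 0.60), Celsr2 (-1.69 to 0.54), Clstn3 (-1.81 to 0.26), Fat3 (-1.77 to 1.01), Fat4 (-2.44 to 8.24), Pcdh10 (-6.62 to 0.49) and Pcdh9 (-1.25 to 0.80). The sign also turned for Cdh1 (-0.63 to 1.45), Cdh3 (-0.49 to 2.57) and Pcdh7 (-1.45 to 0.32), described above by leave-one-out values. Cdh18 was at 0.05 after thinning, Celsr2 was at 0.47 in limma-voom, and Fat3 at -0.0030 with batches in edgeR and -0.14 after thinning. The cause was not tested. No paired analysis was possible because the animals and batches of the cell types share no numbers. Depth limits the shallow batches most, and with 2 animals per type the estimates of spread are themselves uncertain.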
